A study of Mus musculus with 9 samples.

Results

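The results below describe 34 genes of sterol and fatty acid synthesis in capillaries of growing and of mature bone. The genes were chosen by function, as genes under the control of the SREBP transcription factors together with the regulators of that system, and all 34 were among the 39179 genes listed in each deposited table. Earlier results of these data were known when they were chosen, so comparisons of the 34 genes with all genes only describe the list. RNA was sequenced from single capillaries cut out by laser microdissection, with the cells around them, from the ossification front (OF) of femurs. The OF is the zone beneath the growth plate in which new bone is laid down. Many microdissected pieces were collected from each sample, so a library does not stand for a single capillary. Juvenile mice were 4 weeks old (n = 5 libraries) and adult mice were 12 weeks old (n = 4 libraries). All mice carried the Tg(TIE2GFP)287Sato/J reporter, in which the Tie2 promoter drives green fluorescent protein in endothelial cells, they were of C57BL/6 origin, and the labels name no treatment and no other allele. The reporter guided the laser to the vessels, but the pieces also held perivascular and bone cells. In such mixed samples, fewer cells of a type and less RNA per cell cannot be told apart. The libraries of each age were labelled as separate samples, with a number but no batch or date.

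Cells make cholesterol and fatty acids from acetyl-CoA. SREBP-2, the product of Srebf2, mainly drives genes of the sterol branch, and SREBP-1, from Srebf1, mainly drives genes of the fatty acid branch. Both are held in the endoplasmic reticulum by the escort protein SCAP and by INSIG proteins as long as sterols are plentiful. When sterols fall, SCAP carries SREBP to the Golgi, where it is cleaved and released to the nucleus. New fatty acids are lengthened by elongases and given double bonds by desaturases, and both steps set the composition of membrane lipids.

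The control regions of these genes are known for short DNA motifs bound by SREBP and by its partner factors. RefSeq promoter sequences (GRCm38.p6) were matched by symbol for 27 of the 34 genes, and the 250 bases before each annotated start were searched on both strands. The genes not matched were Scd1, Scd2, Fads1, Fdps, Fdft1, Sqle and Stard4. The letters of the sterol response element, TCACNCCAC, were found in 1 of the 27 genes (3.7%) and in 1.22% of all 27025 genes with a promoter. The palindromic E-box CACGTG was found in 6 genes (22.2%, against 6.86% of all genes), namely Dhcr7, Elovl5, Hsd17b7, Insig1, Sc5d and Scap. The NF-Y box CCAAT was present in 22 of the 27 genes (81.5%, against 37.5% of all genes). The GC box GGGCGG was present in 22 as well (81.5%, against 35.4% of all genes). A gene with several annotated starts was counted once, if any of its promoters held the motif. These matches describe letters only and are not binding sites measured in these cells. All genes here are those with a promoter sequence, whether or not they had counts in these libraries. Only the letters given were searched, in 250 bases, so a gene without a match is not shown to lack such an element.

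Promoters are shown for Insig1, Fasn and Sc5d, among the genes whose counts did not overlap between the ages. The promoter of Hmgcs1, the gene that matched the letters of the sterol response element, is shown as well. These promoters were chosen after the motifs were seen and do not represent all 27 genes. Of the other genes without overlap, Fads2 is not shown because its stretch lies in an annotated exon, and its promoter held 1 GC box and none of the other motifs. Dhcr7, also not shown, has 3 annotated starts, of which 1 held the E-box. Each is a stretch of 200 bases, 5′ to 3′ on the strand of the gene, with complete motifs in capitals on either strand. The stretches lie at chr5:28071163-28071362 (plus strand) for Insig1, chr11:120824548-120824747 (minus strand) for Fasn, chr9:42264301-42264500 (minus strand) for Sc5d and chr13:119690151-119690350 (plus strand) for Hmgcs1. None of them overlaps an exon of the GENCODE annotation. The stretch of Insig1 ends 50 bases before the RefSeq start, where an annotated exon begins, and the others end at the base before the start. In Insig1 the capitals mark 3 GC boxes, 1 NF-Y box on the minus strand and the E-box.
Insig1: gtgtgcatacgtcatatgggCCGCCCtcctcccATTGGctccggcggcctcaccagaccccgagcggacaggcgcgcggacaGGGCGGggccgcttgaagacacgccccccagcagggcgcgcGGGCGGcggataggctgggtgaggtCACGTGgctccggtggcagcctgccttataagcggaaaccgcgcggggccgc
In Fasn, encoding fatty acid synthase, they mark 3 NF-Y boxes, and the last pair, on opposite strands, overlaps.
Fasn: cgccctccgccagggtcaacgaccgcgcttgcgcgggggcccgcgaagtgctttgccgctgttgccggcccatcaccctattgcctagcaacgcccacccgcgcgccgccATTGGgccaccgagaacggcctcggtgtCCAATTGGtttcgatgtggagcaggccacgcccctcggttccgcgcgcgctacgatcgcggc
In Sc5d they mark the E-box and 1 NF-Y box.
Sc5d: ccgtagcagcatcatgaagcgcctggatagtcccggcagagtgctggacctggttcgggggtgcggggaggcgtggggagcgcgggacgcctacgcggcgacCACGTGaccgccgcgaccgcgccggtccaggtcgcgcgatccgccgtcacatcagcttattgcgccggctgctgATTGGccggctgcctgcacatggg
In Hmgcs1 they mark the letters of the sterol response element, which begin 137 bases before the start, between 2 NF-Y boxes with 2 GC boxes downstream.
Hmgcs1: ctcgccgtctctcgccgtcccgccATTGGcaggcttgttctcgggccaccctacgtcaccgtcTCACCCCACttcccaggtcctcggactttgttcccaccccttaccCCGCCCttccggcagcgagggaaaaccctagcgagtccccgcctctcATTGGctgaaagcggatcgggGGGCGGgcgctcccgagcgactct

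Library totals ranged from 4856833 to 8077362 counts, at which 3 counts, taken as the floor of detection, equal 0.371 to 0.618 CPM (counts scaled to a library total of 1000000). This floor covers counting error only, because PCR copies of 1 molecule are not independent. Values of single genes are given as normalized counts, which are counts divided by the effective size of the library, itself expressed relative to the geometric mean over all 9 libraries. Log2 fold changes are juvenile over adult with their standard errors (SE), from edgeR's quasi-likelihood test, and adjusted p-values are Benjamini-Hochberg values over all 13418 genes tested. A gene was called at an adjusted p under 0.05. Endothelial RNA was present throughout, since all 8 endothelial marker genes (Pecam1 and Cdh5 among them) had counts in every library, at a summed 501 to 828 CPM in juvenile and 698 to 867 CPM in adult mice, and 0 of the 8 were called (edgeR, 0 at an unadjusted p under 0.05 and 0 with DESeq2). Osteoblast markers were far more abundant, at a summed 164320 to 192944 CPM in juvenile and 69687 to 97189 CPM in adult libraries. Col1a1 and Col1a2 led this sum, with means of 475826 and 515334 normalized counts in juvenile and 183915 and 215923 in adult libraries. Juvenile replicates 4 and 5 had 1099 and 978 counts on Y-linked genes and 11 and 1 on Xist, whereas the other 7 libraries had 2965 to 6598 counts on Xist and at most 5 on Y-linked genes, so all 4 adult libraries were of the second pattern.

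The desaturase genes Fads1, Fads2 and Scd2, the fatty acid synthase gene Fasn and the sterol sensor gene Insig1 were higher in the juvenile OF. Of the genes from acetyl-CoA to cholesterol, 0 were called by edgeR and 2, Sc5d and Dhcr7, by DESeq2. At the share of all genes called, given below, 0 calls do not set these genes apart. All 34 genes passed the filter on low counts. Of these, 5 were called higher in juvenile mice (14.7%, against 1.99% of all genes tested), namely Fads1, Fads2, Scd2, Fasn and Insig1. None was called higher in adult mice (0 of 34, against 1.89% of all genes). At an unadjusted p under 0.05 in edgeR, 9 genes were higher in juvenile mice (26.5%, against 8.54% of all genes) and 1 was higher in adult mice (2.94%, against 8.76%). DESeq2 called 7 genes higher in juvenile mice (20.6%, against 4.57% of the genes it tested) and 0 in adult mice (against 4.90%). The additional genes were Sc5d and Dhcr7. Without adult replicate 2, whose marker genes of neutrophils, chondrocytes and marrow stroma differed from those of the other adult libraries, edgeR called the same 5 genes. Leaving out any other single library kept only 2 or 3 of the 5 calls. Normalized counts of every juvenile library exceeded those of every adult library for 6 genes (17.6%, against 5.07% of all genes), which were Fads1, Fads2, Fasn, Insig1, Sc5d and Dhcr7. The opposite was seen for 0 of the 34 genes (against 4.08%). Log2 fold changes were above 0 for 23 genes and below 0 for 11, with a median of 0.55, where the median of all genes tested was -0.01. Summed over the 34 genes, juvenile libraries held 1252 to 1554 CPM and adult libraries 1085 to 1187 CPM. The 5 desaturases alone held 406 to 580 CPM in juvenile and 199 to 359 CPM in adult libraries. The sums of every other role overlapped between the ages. The osteoblast sum given above, led by Col1a1 and Col1a2, was also higher in every juvenile library. The osteoblast markers Bglap and Bglap2 were higher in adult mice. The part of osteoblast content in these differences was not tested.

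**Figure D1:**
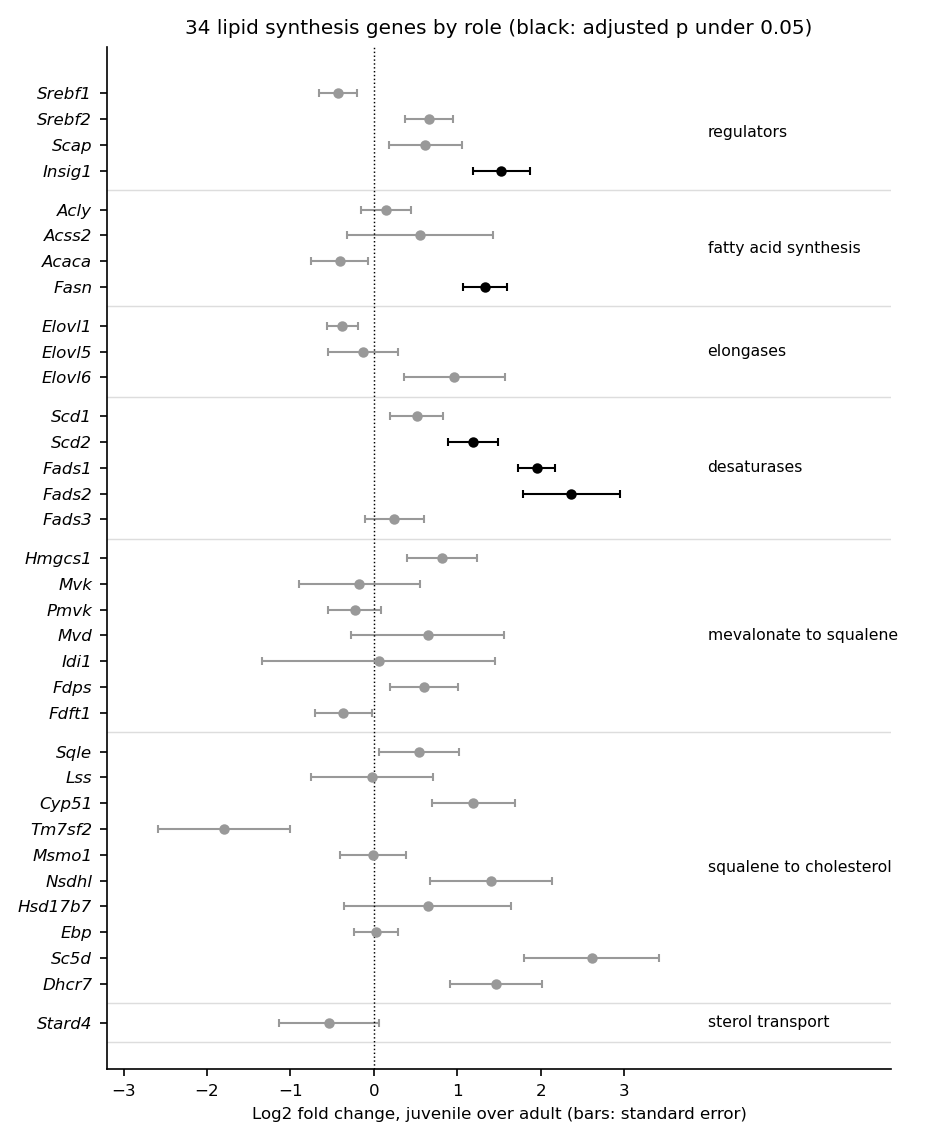
Log2 fold change (juvenile over adult, horizontal axis) of the 34 genes, grouped by role, with bars for the standard error (SE) from edgeR (5 juvenile and 4 adult libraries). Black points mark the 5 called genes, which all lie to the right of 0, and grey points the others. The range runs from -1.80 for Tm7sf2 to 2.61 for Sc5d.

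Among the regulators, Insig1 was 2.89-fold higher in juvenile mice, while the genes of the transcription factors themselves did not pass the test. Insig1 encodes the endoplasmic reticulum protein that retains SCAP and SREBP when sterols are plentiful, and is itself a target of SREBP. Counts after normalization were 471, 718, 558, 350 and 553 in juvenile replicates 1 to 5 and 89.2, 201, 145 and 299 in adult replicates 1 to 4. The lowest juvenile library thus stayed above the highest adult library by a narrow margin. The mean fell from 530.1 ± 135 (SD, n = 5) at 4 weeks to 184 ± 89.4 (SD, n = 4) at 12 weeks, a log2 fold change of 1.53 (SE 0.35, adjusted p = 0.0283, edgeR). The call was lost without juvenile replicate 2 (adjusted p = 0.0685, edgeR), juvenile replicate 3 (0.0667), juvenile replicate 5 (0.0706) or adult replicate 3 (0.0733), while the log2 fold change without a library stayed between 1.29 and 1.85. Srebf2 had normalized counts of 218 to 456 in juvenile and 165 to 278 in adult libraries, with a log2 fold change of 0.67 (SE 0.29, adjusted p = 0.243, edgeR). Srebf1 pointed the other way without passing the test, at 244 to 358 in juvenile and 321 to 502 in adult libraries (log2 fold change -0.43, SE 0.23, adjusted p = 0.375, edgeR). Scap, the escort that carries SREBP to the Golgi, had a log2 fold change of 0.62 (SE 0.44, adjusted p = 0.546, edgeR). The ages overlapped for Srebf2, Srebf1 and Scap.

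In the synthesis of fatty acids, Fasn was 2.52-fold higher in juvenile mice and the enzymes upstream of it did not pass the test. Fasn encodes fatty acid synthase, which builds palmitate from acetyl-CoA and malonyl-CoA. Juvenile replicates 1 to 5 had 419.9, 389, 426, 636 and 384 normalized counts, and adult replicates 1 to 4 had 236, 133, 195 and 152. The juvenile libraries lay close together apart from replicate 4, and all lay above the adult libraries. On average, 451 ± 105 (SD, n = 5) normalized counts at 4 weeks stood against 179 ± 45.9 (SD, n = 4) at 12 weeks (log2 fold change 1.33, SE 0.27, adjusted p = 0.0168, edgeR). Without juvenile replicate 4 the log2 fold change was 1.18 and the adjusted p was 0.0513 (edgeR), while leaving out any other library kept the call. The enzymes that supply its substrates showed log2 fold changes of 0.15 for Acly (ATP citrate lyase, SE 0.30), 0.55 for Acss2 (a cytosolic acetyl-CoA synthetase, SE 0.88) and -0.41 for Acaca (acetyl-CoA carboxylase, SE 0.34). Their adjusted p-values were 0.876, 0.835 and 0.616 (edgeR). Acss2 was thinly covered, with as few as 6 counts in a library.

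Elongases did not pass the test in either direction (0 of 3 called by edgeR, 0 at an unadjusted p under 0.05 and 0 by DESeq2). With 1.99% of all genes tested called higher in juvenile and 1.89% in adult mice by edgeR, this does not set them apart. Elovl1, an elongase of very long saturated and monounsaturated fatty acids, had normalized counts of 699, 843, 709, 501 and 625 in juvenile replicates 1 to 5. In adult replicates 1 to 4 it had 926, 769, 949.7 and 868. Juvenile replicate 2 lay above adult replicate 2, and the other juvenile libraries lay below all adult libraries. The difference amounted to -0.38 on the log2 scale (SE 0.19, adjusted p = 0.318, edgeR). Elovl5, which lengthens polyunsaturated fatty acids, had a log2 fold change of -0.13 (SE 0.42), and Elovl6, which lengthens palmitate to stearate, had 0.96 (SE 0.61). Their adjusted p-values were 0.934 and 0.475 (edgeR).

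**Figure D2:**
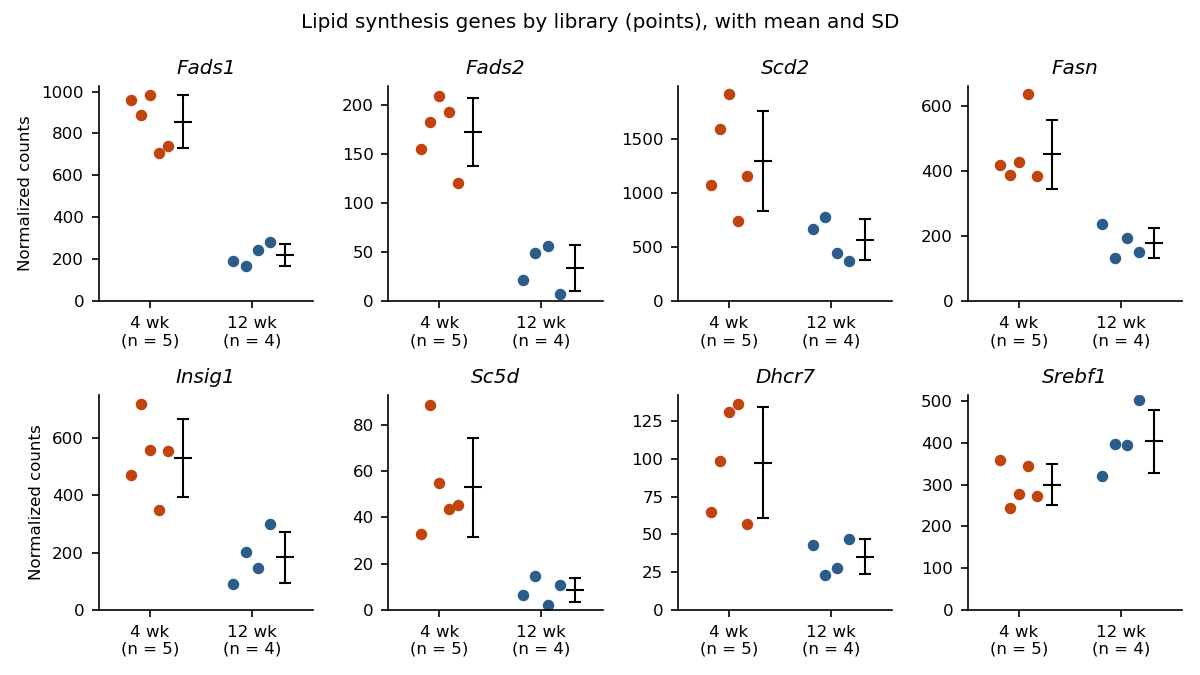
Normalized counts (vertical axes, from 0) of Fads1, Fads2, Scd2, Fasn, Insig1, Sc5d, Dhcr7 and Srebf1 in the 5 juvenile and 4 adult libraries, with points for libraries and bars for the mean and SD. Of these genes, Fads1 shows the widest gap in normalized counts between the ages, from 282 in the highest adult to 705 in the lowest juvenile library, whereas Scd2 and Srebf1 overlap.

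Desaturases held 3 of the 5 called genes, and the log2 fold change of each of the 5 desaturases was above 0. Fads1, encoding the delta-5 desaturase of the pathway to arachidonic acid, was 3.88-fold higher in juvenile mice. It reached 959, 891, 986, 705 and 742 normalized counts in juvenile replicates 1 to 5 and 190.1, 168, 245 and 282 in adult replicates 1 to 4. The ages were far apart, with a wide gap between the lowest juvenile and the highest adult library. The average was 856 ± 127 (SD, n = 5) at 4 weeks and 221 ± 51.7 (SD, n = 4) at 12 weeks, corresponding to a log2 fold change of 1.95 (SE 0.22, adjusted p = 0.000819, edgeR). Fads1 was the only one of the 34 genes called in all 18 alternative settings, with adjusted p-values between 2.41e-15 and 0.0223 and log2 fold changes between 1.82 and 2.10.

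Fads2, the delta-6 desaturase that acts before Fads1 in the same pathway, was 5.15-fold higher in juvenile mice. It reached 156, 184, 209.7, 193 and 121 normalized counts in juvenile replicates 1 to 5 and 21.04, 49.3, 56.7 and 7.08 in adult replicates 1 to 4. All juvenile libraries lay above the adult ones, which differed strongly among themselves and held as few as 9 counts. On the log2 scale the difference was 2.36 (SE 0.58, adjusted p = 0.0409, edgeR). This call was lost on leaving out any of the juvenile libraries, adult replicate 1 or adult replicate 4, with adjusted p-values of 0.0520 to 0.105 (edgeR), and was kept without adult replicate 2 or 3. Without 1 library, the estimate stayed between 2.01 and 2.73. Scd2, a stearoyl-CoA desaturase that makes monounsaturated fatty acids, had normalized counts of 1071, 1594, 1915, 738 and 1155 in juvenile replicates 1 to 5. In adult replicates 1 to 4 it had 665, 782, 449 and 369.6. Juvenile replicate 4 lay below adult replicate 2, so the ages overlapped, although the mean was 2.29-fold higher in juvenile mice. The estimated log2 fold change was 1.19 (SE 0.30, adjusted p = 0.0436, edgeR). The call was kept without juvenile replicate 4 or adult replicate 2 and lost without any of the other 7 libraries, with adjusted p-values of 0.0571 to 0.114 (edgeR) and log2 fold changes of 1.01 to 1.27.

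The remaining desaturases overlapped between the ages and did not pass the test. Scd1, the paralog of Scd2, averaged 301 ± 94.2 (SD, n = 5) normalized counts at 4 weeks and 211 ± 60.2 (SD, n = 4) at 12 weeks (log2 fold change 0.51, SE 0.32, adjusted p = 0.462, edgeR). Scd1 and Scd2 are close paralogs, and how reads shared by both were counted is not stated. Fads3, a related desaturase next to Fads2, averaged 598 ± 227 (SD, n = 5) at 4 weeks and 505 ± 275 (SD, n = 4) at 12 weeks, with a log2 fold change of 0.25 (SE 0.36, adjusted p = 0.815, edgeR).

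The 3 Fads genes lie side by side on chromosome 19 (GRCm38), Fads3 at 10041569 to 10060110 on the plus strand, Fads2 at 10062765 to 10101746 on the minus strand and Fads1 at 10182888 to 10196877 on the plus strand. Scaled to exon length within each library, the ratio of Fads1 to Fads3 was 2.12, 0.858, 2.06, 0.676 and 0.946 in juvenile replicates 1 to 5. In adult replicates 1 to 4 this ratio was 0.357, 0.145, 0.633 and 0.576. The ratio of Fads2 to Fads3 was 0.225 to 0.638 in juvenile and 0.0211 to 0.214 in adult libraries. Both ratios were higher in every juvenile than in every adult library, by a small margin in each case. The ratios of Fads1 to Fads2, of Scd2 to Scd1 and of Srebf2 to Srebf1 overlapped between the ages. These 5 ratios were chosen after the values were seen and were not tested. Within 100 kb of the Fads genes, 6 other genes were tested and 1 was called. That gene was Fth1, encoding the heavy chain of the iron store ferritin, which was higher in adult mice (log2 fold change -1.13, SE 0.20, adjusted p = 0.00911, edgeR). The other 5 had log2 fold changes of -0.80 to 0.52. Scd2 (44293674 to 44306864, plus strand) and Scd1 (44394455 to 44407879, minus strand) lie farther along the same chromosome, with 0 other tested genes within 100 kb.

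**Figure D3:**
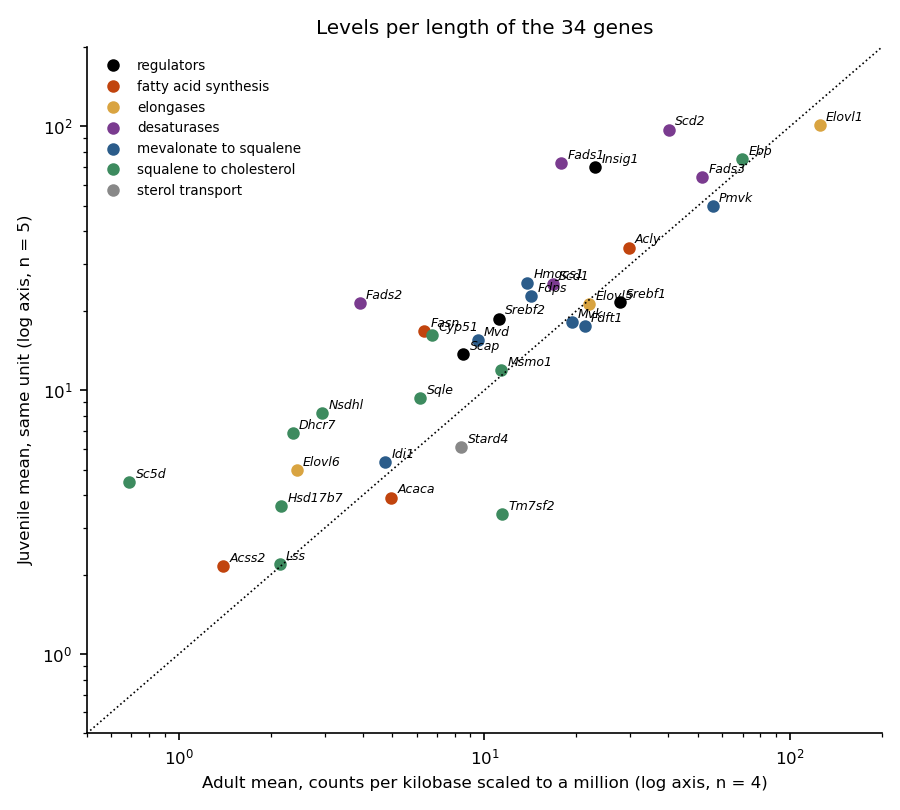
Mean level of each of the 34 genes per kilobase of exon, scaled to 1000000 per library, in 5 juvenile (vertical log axis) and 4 adult libraries (horizontal log axis). The spread is not drawn. Elovl1 leads at both ages, at 101 and 125, and Fads1 lies at 72.6 in juvenile and 17.8 in adult mice.

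Compared per length of exon, with counts per kilobase scaled to 1000000 in each library, the most abundant of the 34 genes was Elovl1 at both ages. Its level was 101 ± 20.03 (SD, n = 5) at 4 weeks and 125 ± 12.0 (SD, n = 4) at 12 weeks. Scd2 followed in juvenile mice, with 97.3 ± 37.3 (SD, n = 5), and its level did not differ from that of Elovl1 beyond the spread. In adult mice Scd2 was at position 5, at 40.2 ± 13.5 (SD, n = 4). Ebp came next in juvenile mice, at 75.1, followed by Fads1 at 72.6 ± 11.4, Insig1 at 70.1 and Fads3 at 64.4, which lay within the spread of each other. In adult mice Fads1 took position 12, at 17.8 ± 4.18, and Insig1 position 8, at 23.0. Fads2 moved from position 13, at 21.4 ± 4.60, to position 27, at 3.91 ± 2.68. The lowest level was that of Acss2 in juvenile mice, at 2.16, and that of Sc5d in adult mice, at 0.689.

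From acetyl-CoA to squalene, 0 of 7 genes were called in either direction (edgeR, 0 at an unadjusted p under 0.05 and 0 with DESeq2). Of all genes tested, edgeR called 1.99% higher in juvenile and 1.89% in adult mice, so this does not set the 7 genes apart. The shares were 8.54% and 8.76% at an unadjusted p under 0.05 (edgeR), and 4.57% and 4.90% with DESeq2. The median log2 fold change of the 7 genes was 0.06. Hmgcs1, encoding the cytosolic HMG-CoA synthase, had the smallest p of this branch. Values were 205, 278, 302, 373 and 282 normalized counts in juvenile replicates 1 to 5 and 289, 63.9, 207 and 92.8 in adult replicates 1 to 4. Adult replicate 1 lay within the range of the juvenile libraries, and the adult libraries split widely. The resulting log2 fold change was 0.82 (SE 0.42, adjusted p = 0.344, edgeR). The kinases Mvk and Pmvk, which phosphorylate mevalonate in succession, had log2 fold changes of -0.18 and -0.23. Mvd, the decarboxylase that follows, had 0.65, Fdps, the farnesyl diphosphate synthase, had 0.60 and Fdft1, the squalene synthase, had -0.36. For Idi1, an isomerase of the pathway, adult replicates 1 and 2 were at 0 counts and adult replicates 3 and 4 at 93.2 and 79.4 normalized counts, so its log2 fold change of 0.06 had an SE of 1.40. Exons of Fdft1 overlap those of Ctsb on the opposite strand, a gene with 3446 to 9085 counts per library, and because the strand setting of the counting is not stated, reads of the pair cannot be told apart. Exons of Fdps overlap Gm43738 on the same strand. Exons of Scap, Acss2, Elovl1, Elovl6, Hmgcs1, Idi1, Lss and Cyp51 overlap exons of other genes on the opposite strand, those of Scd2 overlap a microRNA gene (Mir5114) on the same strand, and those of Srebf1 overlap genes on both strands, so reads of these genes could have been exchanged with the overlapping gene.

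Of the 10 genes from squalene to cholesterol, 0 were called by edgeR (against 1.99% of all genes tested higher in juvenile and 1.89% in adult mice). At an unadjusted p under 0.05 in edgeR, 3 were higher in juvenile mice (against 8.54% of all genes) and 1 in adult mice (against 8.76%). DESeq2 called 2 of the 10 higher in juvenile mice (against 4.57% of the genes it tested) and 0 in adult mice (against 4.90%). Sc5d, the sterol-C5 desaturase, had the highest log2 fold change of all 34 genes. It was at 32.997, 88.6, 54.8, 43.6 and 45.2 normalized counts in juvenile replicates 1 to 5 and 6.53, 14.7, 2.33 and 11.0 in adult replicates 1 to 4. The ages did not overlap, but the counts were low, with 3 in the lowest library. The log2 fold change was 2.61 (SE 0.81, adjusted p = 0.0966 from edgeR and 0.00238 from DESeq2). Dhcr7, which catalyses a final reduction to cholesterol, had normalized counts of 64.9, 98.5, 131, 137 and 57.2 in juvenile replicates 1 to 5. In adult replicates 1 to 4 it had 42.8, 23.1, 28.0 and 47.2. Juvenile libraries again lay above all adult libraries, with a log2 fold change of 1.46 (SE 0.55, adjusted p = 0.175 from edgeR and 0.0254 from DESeq2).

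The other sterol genes overlapped between the ages. Cyp51, the lanosterol demethylase, was at 151 to 210.5 normalized counts in juvenile and 22.0 to 151 in adult libraries, with a log2 fold change of 1.19 (SE 0.50, adjusted p = 0.226, edgeR). Juvenile replicate 4 (150.8) and adult replicate 2 (150.9) alone crossed. Tm7sf2, a sterol reductase, had the lowest log2 fold change of the 34 genes at -1.80 (SE 0.79, adjusted p = 0.255, edgeR). Its adult libraries were at 234, 199, 10.9 and 70.8 normalized counts, and its juvenile libraries at 14.7 to 61.4. The adult values enclosed the whole juvenile range, and exons of Tm7sf2 overlap those of Vps51 on the same strand. Nsdhl, a sterol dehydrogenase encoded on chromosome X, had a log2 fold change of 1.41 (SE 0.73, adjusted p = 0.356, edgeR). Sqle, the squalene epoxidase, had a log2 fold change of 0.54, Hsd17b7, a sterol ketone reductase, had 0.65 and Ebp, a sterol isomerase on chromosome X, had 0.03. Lss, which cyclises the epoxide to lanosterol, had -0.02 and Msmo1, the C4-methylsterol oxidase, had -0.01.

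Stard4, encoding a cytosolic sterol transfer protein, was the single transport gene. It was at 104, 91.3, 103, 14.1 and 104 normalized counts in juvenile replicates 1 to 5 and 129.9, 169, 38.0 and 146 in adult replicates 1 to 4. Most adult libraries lay above the juvenile ones, but adult replicate 3 lay below all juvenile libraries except replicate 4. The log2 fold change was -0.54 (SE 0.60, adjusted p = 0.741, edgeR).

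**Figure D4:**
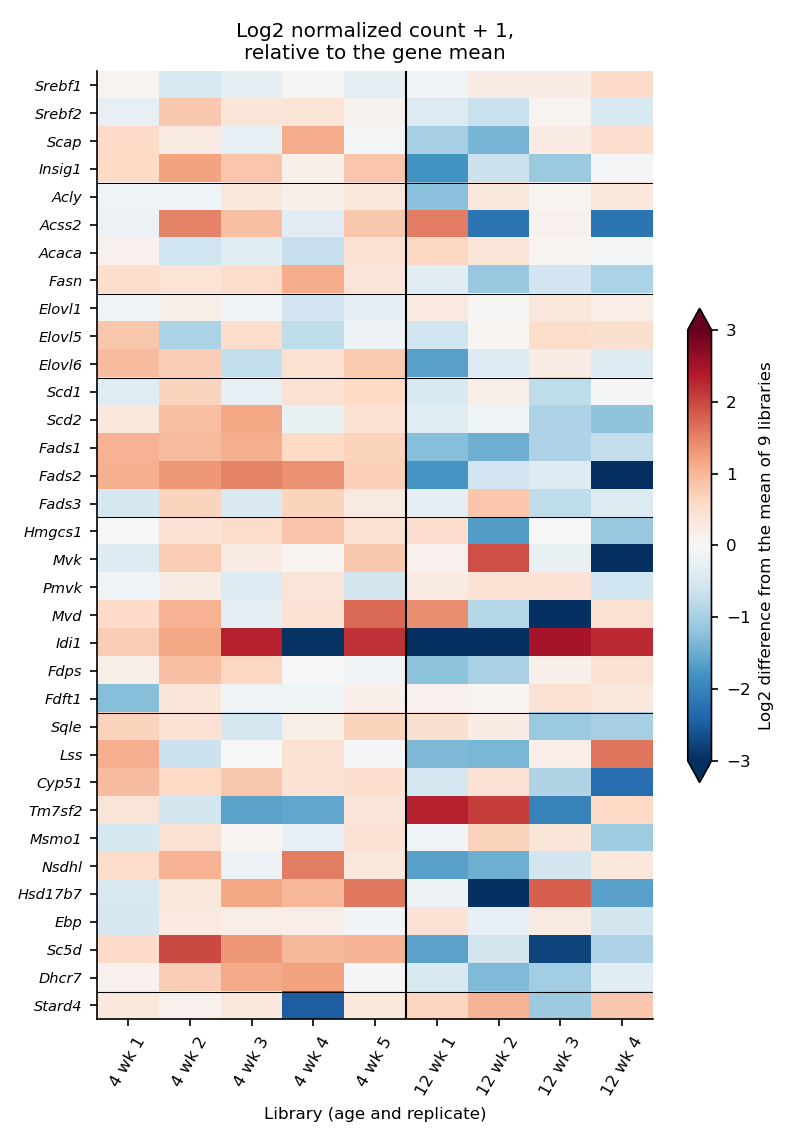
Log2 of normalized counts plus 1 of the 34 genes in the 9 libraries, as the difference from the mean of all libraries (colour, with values beyond 3 in either direction in the end colours), with genes ordered by role. The desaturases Fads1 and Fads2 stand out as high in all 5 juvenile and low in all 4 adult libraries, whereas the genes from acetyl-CoA to squalene show no such split.

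Libraries of adult mice differed more from each other than those of juvenile mice. The median coefficient of variation of the 34 genes was 34.3% in juvenile and 48.1% in adult mice, and 26 genes (76.5%) varied more in adult mice. Over all genes tested the medians were 34.6% and 46.2%, and 68.0% of genes varied more in adult mice. Of the 34 genes, 28 had at least 10 counts in every library.

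Among other genes of lipid metabolism, edgeR called 2, which by itself does not set them apart from all genes tested. A list of 57 further genes, comprising SREBP regulators, enzymes of fatty acid and sterol synthesis, elongation and desaturation, and proteins of sterol uptake, storage and efflux, held 45 genes that could be tested. Of these, 0 were called higher in juvenile mice by edgeR (against 1.99% of all genes tested), with 3 at an unadjusted p under 0.05 (6.67%, against 8.54%) and 2 with DESeq2 (4.44%, against 4.57%). Apoe and Thrsp were called higher in adult mice by edgeR (4.44%, against 1.89% of all genes), with 7 genes at an unadjusted p under 0.05 (15.6%, against 8.76%) and 6 with DESeq2 (13.3%, against 4.90%). The median log2 fold change was -0.04. Apoe, encoding the lipoprotein component that carries lipid between cells, was 6.10-fold higher in adult mice. Its normalized counts were 715, 733, 916, 1049 and 471 in juvenile replicates 1 to 5 and 6571, 1336, 4613 and 6444 in adult replicates 1 to 4. All adult libraries lay above the juvenile ones, with adult replicate 2 nearest to them. The log2 fold change was -2.61 (SE 0.38, adjusted p = 0.00303, edgeR). Thrsp, a regulator of lipogenesis, was at 0, 0.904, 0, 9.43 and 0 normalized counts in juvenile replicates 1 to 5 and 113, 53.5, 36.5 and 86.5 in adult replicates 1 to 4. Its fitted log2 fold change was -5.04 (SE 1.24, adjusted p = 0.0411, edgeR) and depends on the prior count, since 3 juvenile libraries were at 0. The genes next in order of p were Slc25a1, the mitochondrial citrate exporter that feeds fatty acid synthesis (log2 fold change 1.04, SE 0.27, adjusted p = 0.0508, edgeR), Rnf145, a ubiquitin ligase of the sterol response (-0.91, SE 0.24, adjusted p = 0.0594), and Npc2, which moves cholesterol out of lysosomes (-0.67, SE 0.19, adjusted p = 0.0650). The calls of Apoe and Thrsp behaved differently when a library was left out. Apoe was called without any one of the 9 libraries, whereas Thrsp was called only without juvenile replicate 4 or adult replicate 2, and otherwise had adjusted p-values of 0.0543 to 0.0953 (edgeR).

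**Figure D5:**
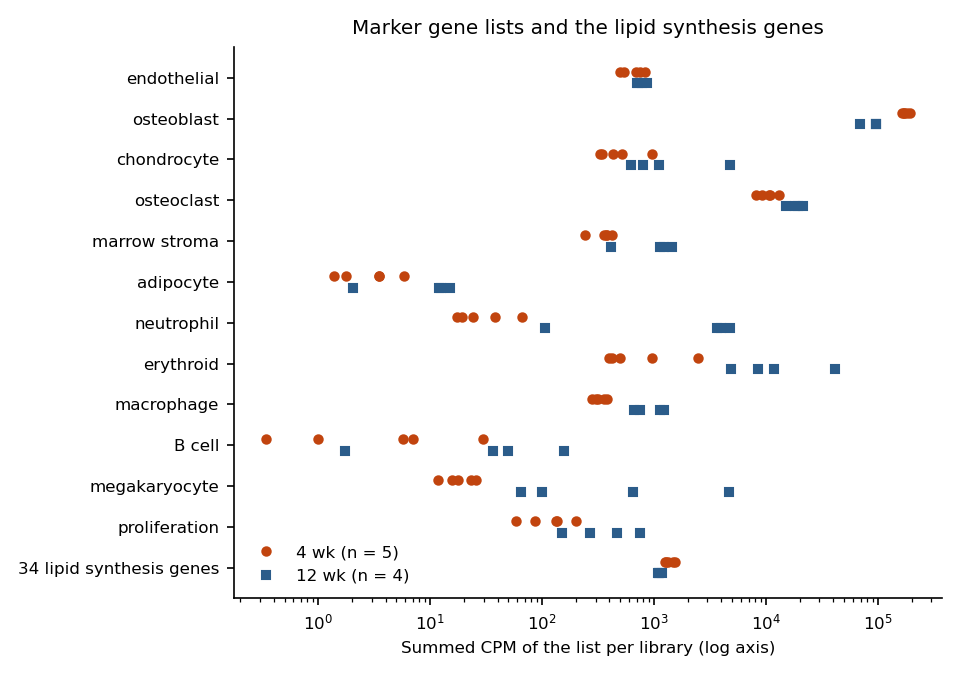
Summed CPM (log axis) of marker lists of cell types and of the 34 genes in each of the 5 juvenile and 4 adult libraries. Sums of endothelial markers overlap between the ages, and those of osteoblast markers are higher in all juvenile libraries. Sums of erythroid, neutrophil and macrophage markers are higher in all adult libraries. Col1a1 and Col1a2 lead the osteoblast sum, while the osteoblast markers Bglap and Bglap2 are higher in adult mice. Csf1r leads the macrophage sum, and the other macrophage markers tested overlap between the ages.

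Marker genes of other cells also moved with age. Of 10 osteoblast markers, 4 were called higher in juvenile mice (Ibsp, Sp7, Col1a1 and Col1a2) and 2 higher in adult mice (Bglap and Bglap2, near-identical copies between which reads could be split). Summed osteoclast markers were at 8079 to 12995 CPM in juvenile and 15141 to 21279 CPM in adult libraries, with 2 of 7 called higher in adult mice. Neutrophil markers summed to 17.5 to 65.7 CPM in juvenile libraries and to 107 CPM in adult replicate 2, against 3681 to 4754 CPM in the other adult libraries, and 8 of the 9 tested were called higher in adult mice. Erythroid markers summed to 395 to 2470 CPM in juvenile and 4851 to 41021 CPM in adult libraries (8 of 8 tested called higher in adult mice). For macrophage markers the sums were 277 to 379 CPM and 659 to 1222 CPM (1 of 7 tested called higher in adult mice, Csf1r). Csf1r led these sums, at a mean of 2033 normalized counts in juvenile and 4155 in adult libraries. The other macrophage markers tested overlapped between the ages. Megakaryocyte markers summed to 11.8 to 25.4 CPM in juvenile and 64.8 to 4664 CPM in adult libraries (1 of 3 tested called higher in adult mice, Pf4). Sums of chondrocyte, marrow stroma, B cell and proliferation markers overlapped between the ages, although single genes of these lists were called. Col2a1 and Comp (of 6 chondrocyte markers tested), Cxcl12 and Vcam1 (of 8 marrow stroma markers) and Mki67 and Birc5 (of 8 proliferation markers) were higher in adult mice, and Lepr, a marrow stroma marker, was higher in juvenile mice. Of 4 B cell markers tested, 0 were called (edgeR, 1 at an unadjusted p under 0.05 and 1 with DESeq2). In adult replicate 2, neutrophil markers were lowest among the adult libraries, while erythroid markers, at 4851 CPM, still exceeded every juvenile library. The called genes did not move together there. Fads1 (168 normalized counts) and Fasn (133) were at their lowest of all 9 libraries and Scd2 (782) was at its highest adult value. Insig1 (201) and Fads2 (49.3) lay between the other adult libraries. Adipocytes, a cell type rich in lipogenic enzymes, left few reads. Their 7 markers summed to 1.37 to 5.80 CPM in juvenile and 2.06 to 15.0 CPM in adult libraries, and Plin1 and Lep were at 0 in every library. The parts of osteoblast, osteoclast and marrow cell content in the differences between the ages were not tested.

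Sex-linked counts divided the juvenile libraries but not the adult ones. When only the 7 libraries in which Xist exceeded the Y-linked genes were compared, 1 of the 34 genes was called, Fads1, with a log2 fold change of 2.10 (adjusted p = 0.0116, edgeR), and 73 genes were called in all. In this comparison of 3 juvenile with 4 adult libraries, the log2 fold changes were 1.67 for Insig1, 1.20 for Fasn, 2.45 for Fads2 and 1.43 for Scd2, with adjusted p-values of 0.116, 0.132, 0.189 and 0.0837 (edgeR). The directions were the same as with all 9 libraries. Among juvenile mice, Fads1 was lower in replicates 4 and 5, at 705 and 742 normalized counts, than in the other 3 libraries, at 891 to 986.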

How the data were processed

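RNA from microdissected capillaries and surrounding cells of 9 femur samples was amplified with a SMART-Seq v4 kit and sequenced in paired reads. The authors deposited whole-number counts of reads per Ensembl gene, with no normalization, 1 table per library. The submitters' processing notes name TopHat2, Bowtie2, featureCounts and the GRCm38 (mm10) genome, without versions. The annotation release, the strand setting and the handling of shared reads are not given in the sources used here. Because the reads were amplified without molecular identifiers, limits based on counts cover counting error only.

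Groups were taken from the age in the labels. Identifiers were matched to GENCODE M21 (37693 of 39179 genes). Counts were compared with edgeR 4.0.16 in R 4.3.3 (filterByExpr, TMM scaling, quasi-likelihood F test without covariates, Benjamini-Hochberg adjustment over 13418 genes). The study's tool, DESeq2 1.42.0, with default settings, was an alternative. Levels between genes were compared as counts per kilobase of exon scaled to 1000000 per library. The fits were checked on simulated counts. In 36 pairs, no libraries were copies of each other, with a lowest chi-square per degree of freedom of 16.9. P-values measure the spread between the libraries, which the labels give as separate samples. Figures were drawn with matplotlib 3.10.9 in Python 3.11.15.

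The 34 genes and the gene lists were chosen with earlier results of these data known. All 34 genes are named. Counts in every library are given for called genes, for genes whose ages did not overlap and for the gene with the smallest p in each role. Of the further lipid genes, those called, or the 5 with the smallest p where fewer were called, are named. Alternatives were other scalings (DESeq2's size factors, the upper quartile), DESeq2, limma 3.58.1 voom with sample quality weights, other filters on low counts, a replicate block, the removal of genes that mark blood or sex, the 7 libraries in which Xist exceeded the Y-linked genes, and each library left out in turn. Of the lists named, Ahsp and Faxdc2 had no match in the annotation.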

Additional observations from a re-analysis of the deposited data

Results flagged for a closer look

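The 34 genes at both ages gave 68 groups of 4 or 5 libraries, and in 2 of these groups 1 library stood far from the rest, measured as its gap to the nearest value over the whole range. At a rate of 1 in 20, 3.4 of the 68 would be reached by chance. Both groups concerned juvenile replicate 4. For Fasn it reached 636 normalized counts, while the remaining juvenile libraries lay between 384 and 426 (gap over range 0.835). For Stard4 it had 14.1 normalized counts, while the remaining ones lay between 91.3 and 104 (gap over range 0.861).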

How the results depend on the processing

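The 0 calls higher in adult mice among the 34 genes held in every setting tried. The 5 calls higher in juvenile mice became 7 with DESeq2, 3 with voom, 4 with at least 10 counts in every library (28 genes tested), 1 with the replicate block, 1 in the 7 libraries in which Xist exceeded the Y-linked genes, and 2 to 5 on leaving out a library. They fell to 2 without juvenile replicate 2, 3 or 5 and to 3 without juvenile replicate 1 or 4 or adult replicate 1, 3 or 4. Fewer samples entered these fits. Replicate numbers did not pair the samples (correlations of deviations -0.03 to 0.03), and with the replicate block 89 genes were called in all. The median log2 fold change of 0.55 was 0.37 with at least 10 counts, 0.76 with the replicate block, 0.34 in those 7 libraries, and 0.39 to 0.61 on leaving out a library. Genes with every juvenile above every adult library numbered 6 to 8 on leaving out a library, and the opposite 0 to 2.

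Of the further lipid genes, those higher in juvenile mice were 2 with DESeq2, 2 with at least 10 counts, and 0 to 2 on leaving out a library. Those higher in adult mice were 6 with DESeq2, 1 with the replicate block, 0 in those 7 libraries, and 1 to 4 on leaving out a library. Log2 fold changes near 0 changed sign for Lss (0.18 with voom, 0.43 with the replicate block, 0.018 in those 7 libraries, -0.34 to 0.94 on leaving out a library), Mvk (0.97 with voom, 0.40 with the replicate block, -0.59 to 0.92), Msmo1 (0.15 with voom, -0.28 to 0.23), Elovl5 (0.13 in those 7 libraries, -0.40 to 0.043), Ebp (-0.0021 with DESeq2, -0.14 to 0.17), Acly (-0.12 to 0.26) and Idi1 (-0.37 to 0.75). The cause of these changes was not tested. Of the 34 genes, 6 had under 10 counts in some library, where counting error is large.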
